A study of Mus musculus with 4 samples.

Results

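Chaperones of the heat shock families were examined as 10 genes, taken by gene symbol from a table of 54532 genes: the HSP70 genes Hspa8, Hspa1a and Hspa1b, the HSP110 gene Hsph1, the HSP90 genes Hsp90aa1 and Hsp90ab1, the J-domain (HSP40) genes Dnajb1 and Dnaja1, and the chaperonin genes Hspd1 (HSP60) and Hspe1 (HSP10). All 10 symbols were found, each in 1 row, and all 10 passed the filter on low counts. The first 8 encode proteins of the cytosol and nucleus, whereas Hspd1 and Hspe1 encode chaperonin subunits of the mitochondrial matrix. RNA had been sequenced from neutrophils separated from the bone marrow of wild-type (WT) mice and treated with DMSO, a solvent, or with amyloid-beta 40 (Aβ40), a fragment that secretases release from the amyloid precursor protein. The Aβ40 dose was 20 µg/ml and the exposure lasted 4 h. There were 2 libraries per group, called DMSO 1, DMSO 2, Aβ40 1 and Aβ40 2 below. The labels give no strain or age, and do not say if a group's libraries are from different mice or cultures, and the p-values therefore reflect the scatter of these 4 libraries alone, possibly technical scatter. The dose and time come from the series' design text, which names the mechanism of Aβ40-induced neutrophil extracellular traps as the question.

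HSP70 proteins bind short hydrophobic stretches of unfolded proteins and release them through cycles of ATP hydrolysis, which J-domain proteins start and nucleotide exchange factors such as HSP110 complete. HSP90 proteins act later, on nearly folded clients such as kinases and steroid receptors, and the mitochondrial chaperonin folds imported proteins inside a closed chamber. The transcription factor HSF1 induces many of these genes after heat or other proteotoxic stress through heat shock elements, inverted repeats of the unit GAA, while Hspa8 and Hsp90ab1 are transcribed in most unstressed cells.

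Promoter sequences bear on this set because its members share an inducer, and they are shown for those genes whose windows held heat shock element letters. RefSeq windows on build GRCm38.p6, from 250 bases before to 50 after a start site, were found for 7 of the 10 genes (12 windows). Not found were Hspa8, Hsp90aa1 and Hsp90ab1. Searched on both strands, GAANNTTC occurred in 7.86% and TTCNNGAA in 8.52% of all 32851 windows, and the 3-unit heat shock element, in which both overlap by their shared unit, in 0.603%. At least 1 of the shorter motifs was found in at least 1 window of 6 of the 7 genes, and no match was found in either window of Dnajb1. This count is per gene, over all windows of a gene and both motifs, so it cannot be set against the shares per window. Only 1 Dnaja1 window held a match and the others held none. The Hspd1 and Hspe1 matches lie in 1 shared stretch, which is counted for both genes. A match is a description of letters, not a bound site. The 250 bases before the start sites of the inducible HSP70 pair are printed first, Hspa1a at chr17:34972157-34972406 and Hspa1b at chr17:34959239-34959488, both on the minus strand and written 5′ to 3′, with the GAANNTTC match in capitals:
Hspa1a: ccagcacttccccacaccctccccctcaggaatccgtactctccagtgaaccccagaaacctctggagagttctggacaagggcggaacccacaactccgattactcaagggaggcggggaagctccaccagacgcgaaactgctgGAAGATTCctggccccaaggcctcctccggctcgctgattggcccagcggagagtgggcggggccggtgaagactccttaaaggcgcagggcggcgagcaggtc
Hspa1b: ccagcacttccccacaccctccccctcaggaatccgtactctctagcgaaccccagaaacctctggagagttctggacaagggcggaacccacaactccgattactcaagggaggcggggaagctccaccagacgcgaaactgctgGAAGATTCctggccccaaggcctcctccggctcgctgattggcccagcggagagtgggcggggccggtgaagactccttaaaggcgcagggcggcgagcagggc

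The 2 stretches were 98.8% identical. They differed at 3 positions, counted from 1 at the 5′ end and given as the Hspa1a base, the position and the Hspa1b base: C44T, T47C and T249G. In both, the match began 104 bases before the start site. Matches before the start sites of 3 other genes are printed with their flanks, to set the Hspe1 stretch, which the window of the second of 2 Hspd1 start sites also held, beside single shorter motifs of Dnaja1 and Hsph1. The window of the first Hspd1 start site held no match. Each of the 2 overlapping Hsph1 windows also held 1 match of the 3-unit element after its start site, beginning 36 and 15 bases into the transcribed part, which is not printed. They are Hspe1 at chr1:55088051-55088079 on the plus strand, where 2 matches of the 3-unit element overlap, Dnaja1 at chr4:40722334-40722361 on the plus strand, with GAANNTTC, and Hsph1 at chr5:149636352-149636379 on the minus strand, with TTCNNGAA. Capitals mark the matches:
Hspe1: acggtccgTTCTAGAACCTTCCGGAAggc
Dnaja1: aaagcctctaGAAAATTCtacgaggctc
Hsph1: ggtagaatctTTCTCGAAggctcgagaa

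Read totals ran from 17212264 to 19524125 counts per library. Summed over 13 neutrophil markers, among them S100a8, S100a9, Ly6g, Camp and Ltf, levels in CPM (counts scaled to library size) were 102844 to 143955 with DMSO and 141197 to 148812 CPM with Aβ40, and no marker was at 0. Markers of B cells, eosinophils and T and natural killer cells were present too and some were called between the groups, as given beside the results below. DMSO 2 stood apart for several chaperones. Over genes, which are not independent replicates, Spearman's rho was 0.978 between the DMSO libraries and 0.987 between the Aβ40 libraries. It was 0.982 between DMSO 1 and Aβ40 2 and 0.977 between DMSO 2 and either Aβ40 library. The lowest rho, 0.974, was between DMSO 1 and Aβ40 1, so these correlations did not single out DMSO 2. Chi-square per degree of freedom was 55.6 between the DMSO libraries and 16.9 between the Aβ40 libraries, far above sampling noise, so neither pair was 1 library deposited again. It was 63.6 and 58 for DMSO 2 against Aβ40 1 and 2, and 60.6 and 32.3 for DMSO 1 against them. DMSO 2 also had the lowest sum of every cell marker list given here and below, except that of B cells.

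None of the 10 chaperone genes passed the test between Aβ40 and DMSO. Hspa8 lay on the opposite side of 0 from Hspa1a and Hspa1b, and Hsp90aa1 from Hsp90ab1. The pairs Hspa1a and Hspa1b, Dnajb1 and Dnaja1, and Hspd1 and Hspe1 each lay on the same side. Of the 10 genes 7 had a log2 fold change above 0, as did 51.1% of all tested genes. The constitutive HSP70 gene Hspa8 and the inducible HSP90 gene Hsp90aa1 lay higher in both Aβ40 libraries, at a fold of 1.38 each, while the inducible HSP70 genes Hspa1a and Hspa1b lay lower, at folds of 0.600 and 0.546, and the constitutive HSP90 gene Hsp90ab1 was at a fold of 0.805. The mitochondrial cochaperonin gene Hspe1 had the highest fold, 1.73. Of 13479 genes tested, 0.126% were called (edgeR quasi-likelihood, Benjamini-Hochberg adjusted p below 0.05), all of them higher with Aβ40, against 0 of the 10 chaperones. At an unadjusted p under 0.05, 3 chaperones were higher and 1 was lower, where 6.51% of all tested genes were higher and 5.72% lower. DESeq2 and limma-voom also called 0 of the 10, with 3 and 4 of them at an unadjusted p under 0.05.

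Across libraries 6 chaperones had both Aβ40 values above both DMSO values, 3 had both below and 1, Dnaja1, overlapped. Over all tested genes the groups did not overlap for 45.1%, higher for 23.2% and lower for 21.9%. The median log2 fold change (Aβ40 minus DMSO throughout) of the 10 chaperones was 0.25 and the mean 0.07, against a median of 0.01 over all tested genes. Since the members had been chosen with earlier results of these data known, no test of the set was made.

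**Figure D1:**
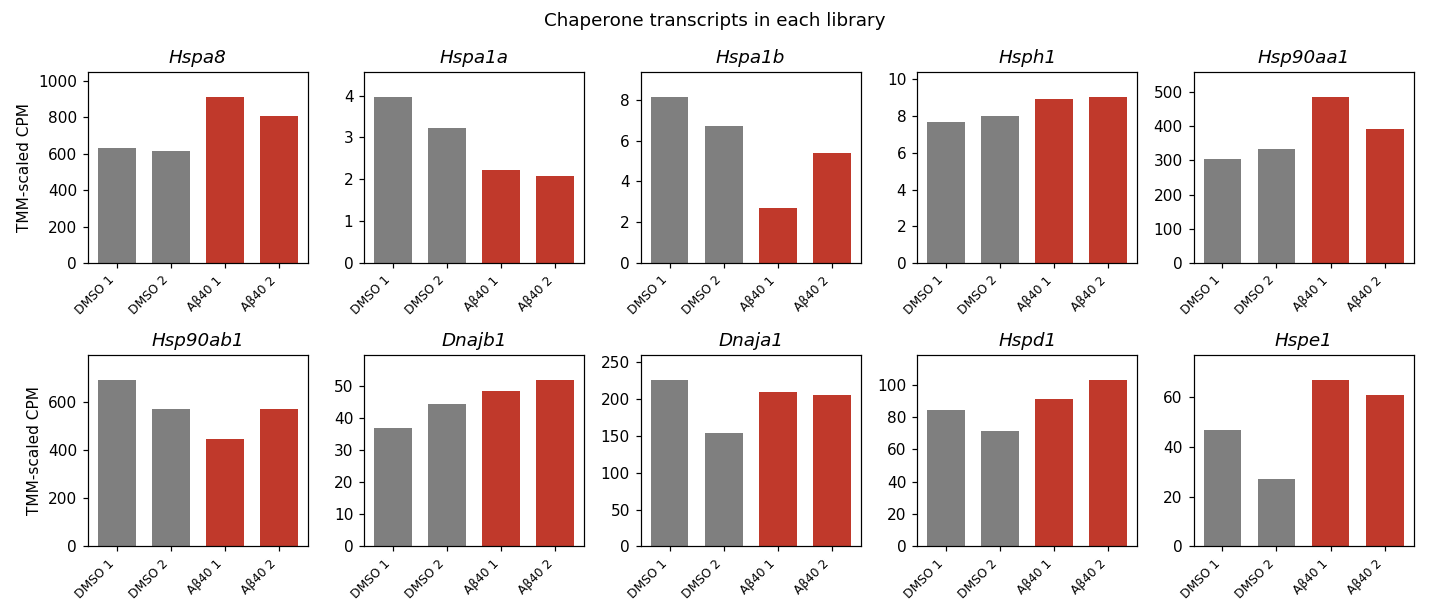
Level of each of the 10 chaperone transcripts in TMM-scaled CPM (vertical axis, from 0, a separate scale for each gene), with 1 bar per library, DMSO in grey and Aβ40 in red. Hspa8, Hsp90aa1 and Hspe1 stand higher in both Aβ40 libraries, Hspa1a and Hspa1b lower, and DMSO 2 is the lowest library for Dnaja1, Hspd1 and Hspe1.

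Hspa8 (ENSMUSG00000015656, mm10 chromosome 9, 40800984 to 40810087, plus strand), the constitutive cytosolic HSP70 also known as HSC70, was at 633 and 613 CPM in DMSO 1 and 2 and at 913 and 806 CPM in Aβ40 1 and 2. Both Aβ40 libraries were above both DMSO libraries, which lay close together. Mean levels were 623 ± 14.1 CPM (SD, n = 2) with DMSO and 860 ± 75.3 CPM (SD, n = 2) with Aβ40. The log2 fold change was 0.46 (SE 0.18, 95% confidence interval 0.05 to 0.88), and it did not pass the adjustment (edgeR quasi-likelihood, Benjamini-Hochberg adjusted p = 0.372). Leaving out each library in turn gave log2 fold changes of 0.37 to 0.53.

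Hspa1a and Hspa1b encode the stress-inducible HSP70 and lie next to each other on chromosome 17 (ENSMUSG00000091971, 34969190 to 34972156, and ENSMUSG00000090877, 34956436 to 34959238, both on the minus strand). Their transcripts were scarce in these cells. Hspa1a had 74 and 60 counts with DMSO and 38 and 40 with Aβ40, which are 3.97, 3.23, 2.22 and 2.09 CPM. Hspa1b had 152 and 125 counts with DMSO and 46 and 103 with Aβ40, which are 8.15, 6.72, 2.69 and 5.39 CPM. In both genes the DMSO libraries were above the Aβ40 libraries, and for Hspa1b the 2 Aβ40 libraries were far apart. Log2 fold changes were -0.74 (SE 0.40) for Hspa1a and -0.87 (SE 0.38) for Hspa1b, with adjusted p = 0.488 and 0.403 (edgeR quasi-likelihood, Benjamini-Hochberg). Hspa1b was at -0.46 without Aβ40 1 and at -1.48 without Aβ40 2.

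Reads of this pair are hard to assign, so each level on its own is uncertain. In the GENCODE M21 transcripts the coding sequences, of 1923 and 1926 bases, differed by 8 mismatches and 3 gap bases, an identity of 99.4%. Of the 100-base windows of the Hspa1a transcript, 47.1% occurred unchanged in that of Hspa1b (58.8% of 50-base and 38.1% of 150-base windows). Read length and the handling of reads that fit both genes are not given in the labels or files. The Hspa1a gene also overlaps the protein-coding gene Gm20481 on the other strand by 2225 bases. Gm20481 had 0 counts in every library. The strand setting of the counting is not given, and whether Hspa1a reads were lost to this overlap was not tested. Hspa1b took 67.3% and 67.6% of the pair's counts with DMSO and 54.8% and 72.0% with Aβ40. With both genes added into 1 row, there were 226 and 185 counts with DMSO and 84 and 143 with Aβ40. In CPM the sum was at 12.1 and 9.95, then at 4.91 and 7.48. The summed log2 fold change was -0.83 (SE 0.30, 95% confidence interval -1.50 to -0.15; edgeR quasi-likelihood, Benjamini-Hochberg adjusted p = 0.350). It was at -0.97 without DMSO 2 and at -0.56 without Aβ40 1. Without Aβ40 2 it was at -1.18.

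Hsph1 (ENSMUSG00000029657, chromosome 5, 149614287 to 149636376, minus strand) encodes HSP110 (also called HSP105), a nucleotide exchange factor and holdase that is itself heat-inducible. It was at 7.66 and 8.01 CPM with DMSO and at 8.95 and 9.05 CPM with Aβ40. The groups did not overlap, but the log2 fold change of 0.20 (SE 0.25) had a confidence interval from -0.37 to 0.77.

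The HSP90 pair is told apart more easily and was abundant. Hsp90aa1 (ENSMUSG00000021270, chromosome 12, 110690605 to 110702728, minus strand), the stress-inducible alpha isoform, was at 303 and 334 CPM with DMSO and at 485 and 391 CPM with Aβ40. Its log2 fold change was 0.46 (SE 0.19, 95% confidence interval 0.03 to 0.89; edgeR quasi-likelihood, Benjamini-Hochberg adjusted p = 0.386). Hsp90ab1 (ENSMUSG00000023944, chromosome 17, 45567775 to 45573271, minus strand), the constitutive beta isoform, was at 692 and 571 CPM with DMSO and at 446 and 571 CPM with Aβ40. DMSO 2 and Aβ40 2 were almost level for Hsp90ab1, at 571.4 and 571.2 CPM, so the groups only just failed to overlap. Its log2 fold change was -0.31 (SE 0.21, 95% confidence interval -0.78 to 0.15), and without Aβ40 1 it was -0.14.

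**Figure D2:**
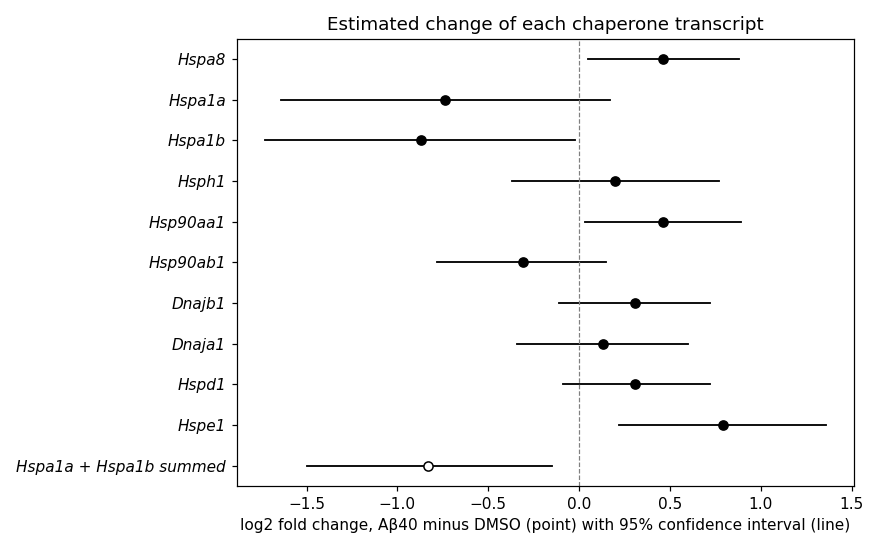
Log2 fold change of Aβ40 minus DMSO (horizontal axis) for each chaperone gene (filled points) and for Hspa1a and Hspa1b added together (open point), with 95% confidence intervals as lines from the edgeR quasi-likelihood fit on 2 libraries per group. The intervals of Hspa8, Hsp90aa1 and Hspe1 lie above 0 and those of Hspa1b and of the summed pair below 0, but none of the adjusted p-values was under 0.05.

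Both J-domain partners of HSP70 had intervals that held 0. Dnajb1 (ENSMUSG00000005483, chromosome 8, 83608193 to 83612653, plus strand), the heat-inducible class B protein, was at 36.8 and 44.1 CPM with DMSO and at 48.4 and 51.7 CPM with Aβ40, a log2 fold change of 0.31 (SE 0.18). Dnaja1 (ENSMUSG00000028410, chromosome 4, 40722150 to 40737149, plus strand), a class A protein, was at 226 and 154 CPM with DMSO and at 210 and 206 CPM with Aβ40. The DMSO libraries lay on both sides of the Aβ40 libraries, and the log2 fold change was 0.13 (SE 0.21). It was 0.43 without DMSO 1 and -0.13 without DMSO 2. The last 608 bases of the Dnaja1 gene overlap Smu1 on the other strand, whose counts reached 2649, and no source used here gives the strand setting of the counting.

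The mitochondrial chaperonin genes are arranged head to head on chromosome 1. Hspd1 (ENSMUSG00000025980, 55077835 to 55088243, minus strand) encodes the folding chamber and Hspe1 (ENSMUSG00000073676, 55088132 to 55091307, plus strand) its lid, and their annotated ends overlap by 112 bases. Hspd1 was at 84.7 and 71.2 CPM with DMSO and at 91.1 and 103 CPM with Aβ40, with a log2 fold change of 0.31 (SE 0.18). Hspe1 was at 46.7 and 27.3 CPM with DMSO and at 67.0 and 60.9 CPM with Aβ40. Both Aβ40 libraries were above both DMSO libraries in either gene, and DMSO 2 was the lowest of the 4. Mean Hspe1 was 37.0 ± 13.7 and 63.9 ± 4.31 CPM (SD, n = 2 each). Its log2 fold change was 0.79 (SE 0.25, 95% confidence interval 0.22 to 1.36), with a Benjamini-Hochberg adjusted p = 0.329 (edgeR quasi-likelihood). The estimate rested on DMSO 2: without DMSO 1 it was 1.23 and without DMSO 2 it was 0.44. With no filter on low counts Hspe1 was called at 0.78 (edgeR quasi-likelihood, adjusted p = 0.0347). That setting called 185 of 21760 genes higher and 70 lower, against 17 and 0 in the main fit.

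Relatives were also compared within a library by the ratio of their FPKM (fragments per kilobase of gene, scaled to library size). The ratio of Hspa1a plus Hspa1b to Hspa8 was 0.0288 and 0.0245 with DMSO and 0.00805 and 0.0140 with Aβ40, lower in both Aβ40 libraries. The ratio of Hsp90aa1 to Hsp90ab1 was 0.334 and 0.445 with DMSO and 0.829 and 0.522 with Aβ40, higher in both. Aβ40 1 had the extreme value in each of these ratios. Both separations follow from the single genes given above, whose groups already lay apart in opposite directions, so they add no further observation. The ratio of Hspd1 to Hspe1 was 1.01 and 1.45 with DMSO and 0.759 and 0.942 with Aβ40, and that of Dnajb1 to Dnaja1 (0.439 and 0.770, then 0.622 and 0.676) overlapped. An exact 2-sided permutation test of 2 libraries against 2 cannot give a p below 0.333, and no test of these ratios was run.

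**Figure D3:**
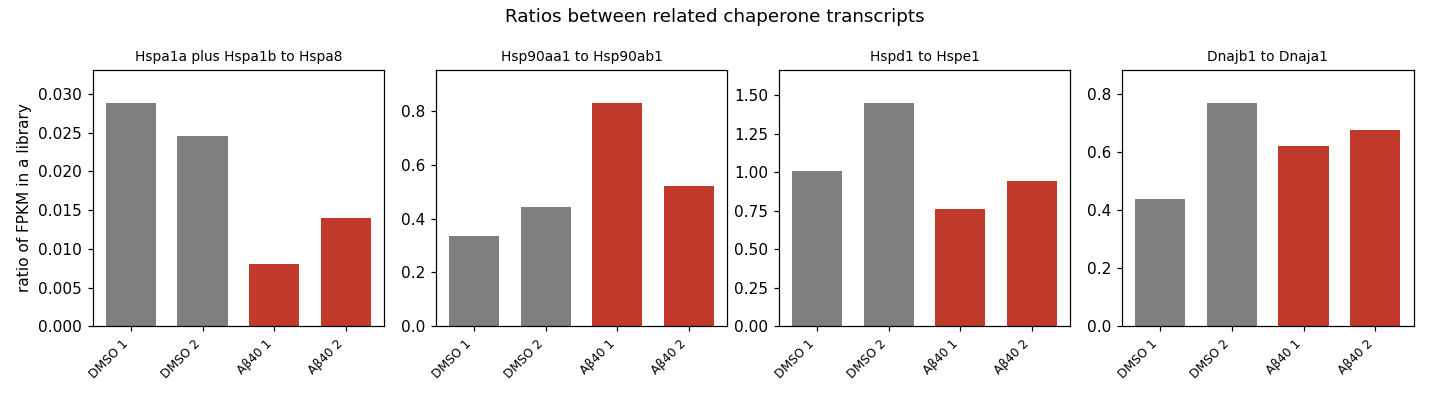
Ratio of FPKM between related chaperone genes in each library (vertical axis, no unit, from 0), DMSO in grey and Aβ40 in red. Hspa1a plus Hspa1b relative to Hspa8 is lower and Hsp90aa1 relative to Hsp90ab1 higher in both Aβ40 libraries, with Aβ40 1 the more extreme, while Dnajb1 relative to Dnaja1 overlaps.

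Per length, the members spanned more than 2 orders of magnitude in mean FPKM over the 4 libraries. Hsp90ab1 (188 FPKM) and Hspa8 (171 FPKM) led, and their ranges over libraries overlapped. Hsp90aa1 followed at 95.2 FPKM, above the next gene in all 4 libraries. Hspe1 (33.9 FPKM) and Hspd1 (32.8 FPKM) were not separable, with each ahead in 2 libraries. Dnaja1 at 22.8 and Dnajb1 at 14.0 FPKM each stood apart from the next gene in all 4 libraries. This order depends on the deposited gene lengths, such as 8629 bases for Dnaja1 and 2642 for Hspd1. In mean CPM, not divided by length, Dnaja1 (199) stood above Hspd1 (87.4) and Hspe1 (50.5). The least abundant were Hspa1b (2.03 FPKM), Hsph1 (1.05 to 1.23 FPKM) and Hspa1a (0.962 FPKM), whose neighbouring ranges overlapped. By mean FPKM Hsp90ab1 ranked 287 and Hspa1a 10397 of the 13479 tested genes. Together the 10 genes took 0.195% and 0.198% of all counts with DMSO and 0.220% in each Aβ40 library.

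Markers of other marrow cells differed in part between the groups. Over all tested genes 51.1% had a positive log2 fold change and 0.126% were called. All 12 B cell markers had a positive log2 fold change and 5 of them rose, Cd79a, Cd79b, Ms4a1, Vpreb1 and Vpreb3 (edgeR quasi-likelihood, adjusted over all genes), with summed levels of 566 to 651 CPM with DMSO and 1241 to 1251 CPM with Aβ40. Ighm, the immunoglobulin mu heavy chain and the most abundant of them, was at 395 and 483 CPM and then 755 and 741 CPM. All 8 eosinophil markers were positive, 1 of them (Ear6) called, at 1365 to 1623 and 3566 to 3611 CPM, led by Prg2, the major basic protein, at 924 and 777 CPM and then 1951 and 2136 CPM. All 10 tested T and natural killer cell markers, of 11, were positive, 1 of them (Gzmb) called, at 93.0 to 97.7 and 142 to 158 CPM, with the granule protein gene Nkg7 the most abundant. Monocyte and macrophage markers (7 of 10 positive, 0 called) summed to 2650 to 2749 and 3059 to 3522 CPM, led by Ly6c2, and genes of cycling cells (9 of 12 positive, 0 called) to 1998 to 2441 and 2494 to 2582 CPM, led by Pcna. Erythroid markers (3 of 7 tested positive, 0 called) ran from 2114 to 5042 CPM with DMSO and from 3494 to 3647 CPM with Aβ40, with Hbb-bs lowest in DMSO 2. Neutrophil markers were positive in 9 of 13, 0 called, led by S100a9. Leaving out each library in turn, S100a9 ran from 0.06 to 0.77 and Pcna from 0.13 to 0.82 on the log2 scale. The called markers were named after their values were seen. No marker of these lists was at 0 in all 4 libraries. Their part in the chaperone values was not tested, and in these bulk samples a change in the number of cells of a type and in RNA per cell cannot be told apart.

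The 10 lists of the wider chaperone network held 0 called genes in the edgeR quasi-likelihood fit. Of their 81 tested genes 13 were at an unadjusted p under 0.05, 8 higher and 5 lower, where 12.2% of all tested genes were (6.51% higher and 5.72% lower). DESeq2 and limma-voom also called 0, with 11 and 12 at an unadjusted p under 0.05. Leaving out a library leaves 1 in its group and moved the number of genes called over the whole table. Calls at those settings were therefore not read for these lists. Bag6 and Hyou1, given below, were named after their values were seen. Subunits of the cytosolic chaperonin TRiC, which folds actin and tubulin, lay above 0: 8 of 8 tested subunits had a positive log2 fold change, from 0.05 to 0.43, with a median of 0.33, and in 7 both Aβ40 libraries were above both DMSO libraries, as in 23.2% of all tested genes. Cct4 was at 224 and 200 CPM with DMSO and 291 and 267 CPM with Aβ40. Cct6a was at 0.43 (SE 0.17; Benjamini-Hochberg adjusted p = 0.375) and Cct5, the most abundant, at 0.33 (SE 0.20). The prefoldin subunits, which hand actin and tubulin to TRiC, were positive in 6 of 6 with a median of 0.30, but non-overlapping in 1. That was Pfdn1, at 13.4 and 7.90 CPM with DMSO and 20.9 and 22.8 CPM with Aβ40, a log2 fold change of 1.04 (SE 0.28; adjusted p = 0.265). Without DMSO 1 Pfdn1 was at 1.47. With no filter on low counts it was called (edgeR quasi-likelihood, adjusted p = 0.0139), where 185 of 21760 genes were called higher and 70 lower. Pfdn5, at 265 CPM in DMSO 1 and 118 CPM in DMSO 2, was at 0.41 (SE 0.32) and at 1.11 without DMSO 1. Vbp1 was at 0.28 (SE 0.19). Without DMSO 2 the prefoldin median was -0.04.

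Among proteins that work directly on HSP70, the list split. Of 12 nucleotide exchange factors and co-chaperones 6 were positive and 6 negative, with a median of 0.00029 and a mean of -0.20. Dnajc7, which binds HSP70 and HSP90, was at 131 and 103 CPM with DMSO and 170 and 186 CPM with Aβ40. Its log2 fold change was 0.60 (SE 0.18), with adjusted p = 0.322 (edgeR quasi-likelihood), and 0.79 without DMSO 1. Bag1, the other most abundant member, was at -0.06 (SE 0.23). Named after their values were seen, Stub1, the ubiquitin ligase CHIP, was at 16.7 and 16.6 CPM with DMSO and 8.83 and 11.1 CPM with Aβ40, and Bag6, a chaperone of membrane proteins, at 55.5 and 69.8 and then 43.4 and 39.8 CPM. Their log2 fold changes were -0.73 (SE 0.24) and -0.59 (SE 0.19). Bag2 had 31 and 35 counts with DMSO and 7 and 8 with Aβ40, a log2 fold change of -2.08 (SE 0.64). It was the lowest value of the list, on few counts, and weighs heavily on the list's mean. Bag3, an HSF1 target that pairs HSP70 with small heat shock proteins, was at 7.29 and 6.40 and then 5.62 and 4.65 CPM. Groups did not overlap for any of these 4, all lower with Aβ40, and none passed the adjustment. Of the 12 genes of the list, 5 were lower without overlap, 4 were higher without overlap and 3 overlapped. Over all tested genes 21.9% were lower and 23.2% higher without overlap.

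The other lists lay closer to 0 or were thinly expressed. Other HSP70 and HSP110 proteins were positive in 4 of 5 tested, of 8, with a median of 0.14: Hspa4 was at 0.08 (SE 0.16), Hspa14 at -0.05 (SE 0.17) and Hspa4l, the testis-rich HSP110 relative, at 0.27 (SE 0.21). Other J-domain proteins were positive in 4 of 11 tested, of 15 (median -0.11), with Dnaja2 at 0.07 (SE 0.17) and Dnajb6 at 0.27 (SE 0.18). HSP90 co-chaperones were positive in 8 of 15 (median 0.05). Sugt1 was at 0.24 (SE 0.23) and Ptges3, the p23 protein, at -0.06 (SE 0.17). Fkbp5 encodes an immunophilin of the steroid receptor complex and is a glucocorticoid target. It was at 73.0 and 64.7 CPM with DMSO and 39.5 and 51.2 CPM with Aβ40. Its log2 fold change was -0.60 (SE 0.19), with adjusted p = 0.330 (edgeR quasi-likelihood), and -0.69 without DMSO 2.

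Chaperones of other compartments were mostly positive. In the endoplasmic reticulum (ER) 8 of 10 were, with a median of 0.25: Hspa5, the ER HSP70 called BiP, was at 624 and 485 CPM with DMSO and 717 and 683 CPM with Aβ40, Pdia3 at 0.08 (SE 0.21) and Pdia4 at 0.60 (SE 0.19). Hyou1, an ER relative of HSP110, was at -0.56 (SE 0.24). Mitochondrial chaperones and proteases, which work beside Hspd1 and Hspe1, were positive in 8 of 9 with a median of 0.20. The matrix HSP70 gene Hspa9 was at 118 and 113 CPM with DMSO and 130 and 135 CPM with Aβ40, its exchange factor gene Grpel1 at 0.54 (SE 0.19), and the protease subunit gene Clpx at 0.15 (SE 0.18). Leaving out each library in turn, Grpel1 ran from 0.41 to 0.68 and Pdia4 from 0.51 to 0.69. Cct5 ran from 0.10 to 0.59 and Sugt1 from -0.06 to 0.60.

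The heat shock factors themselves were low and near 0. Hsf1 was at 6.81 and 11.1 CPM with DMSO and at 8.48 and 10.8 CPM with Aβ40, a log2 fold change of 0.11 (SE 0.31), and from -0.20 without DMSO 1 to 0.50 without DMSO 2. Hsf2 was at -0.22 (SE 0.26) and Hsbp1, a small protein that binds HSF1, at 0.14 (SE 0.18). Of 9 small heat shock proteins 2 were tested, Hspb6 at 0.51 (SE 0.55) and Hspb11, which is also an intraflagellar transport protein, at 0.23 (SE 0.54). Hspb11 was at 1.58 without DMSO 1 and at -0.47 without DMSO 2. Hspb1 had between 0 and 8 counts per library and Hspb8 had 0 counts in all 4, so neither could be compared at this depth; both were named after their values were seen.

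**Figure D4:**
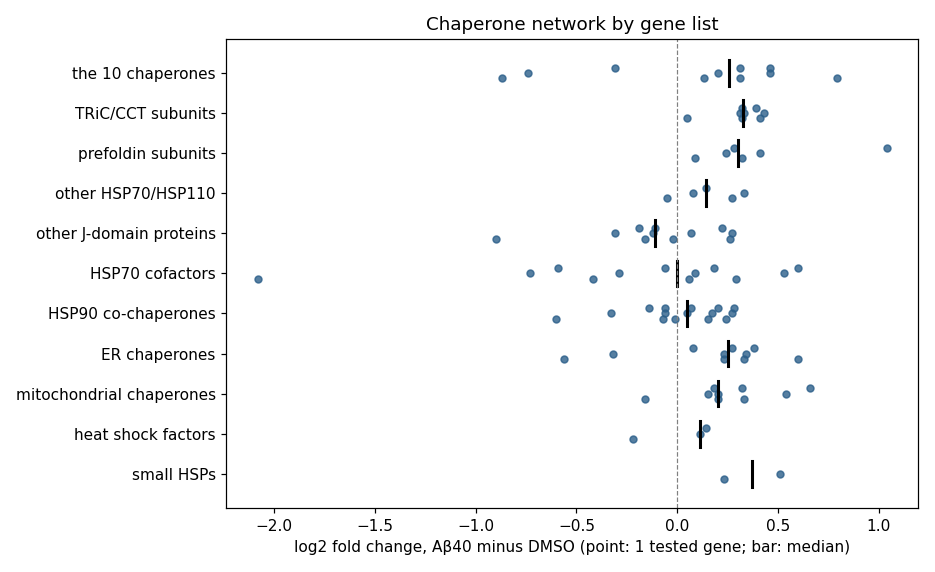
Log2 fold change of Aβ40 minus DMSO (horizontal axis) for every tested gene of each list (1 point per gene, spread vertically for legibility), with the list median as a black bar. TRiC subunits lie within 0.05 and 0.43, while the 10 chaperones run from -0.87 to 0.79 and HSP70 cofactors from -2.08 to 0.60.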

How the data were processed

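The authors deposited whole-number read counts per gene and FPKM for 4 libraries. HISAT2 2.0.5, featureCounts 1.5.0-p3 and build mm10 are listed, without roles, per the submitters' processing notes; the annotation release is not given in the sources used here. As checked on the values, the deposited FPKM equal counts divided by gene length and by a library size that follows median-ratio size factors. Tests on counts used edgeR 4.0.16 (R 4.3.3): filterByExpr left 13479 genes, scaling was TMM, and the quasi-likelihood test (intercept and group, 2-sided, 2 residual degrees of freedom) was adjusted by Benjamini-Hochberg over all tested genes and called under 0.05. CPM are TMM-scaled. The fit was tested on simulated data.

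Other settings tried were scaling by library size, upper quartile or median ratio, the tools DESeq2 1.42.0 and limma-voom (limma 3.58.1), no filter or a minimum mean count of 10, only protein-coding genes, a block for replicate number, each library left out in turn, and log2 FPKM with pseudocount 1 or 0.1 in limma. The members and lists were chosen with earlier results of these data known. The genes named are the 10 members, per wider list the 2 of highest mean CPM and the 1 of smallest p, Hsf1, and the most abundant gene of each marker list; the marker lists are those of neutrophils, B cells, T and natural killer cells, eosinophils, monocytes and macrophages, erythroid cells and cycling cells. TTCNNGAA was added to the motif search after the sequences were seen.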

Additional observations from a re-analysis of the deposited data

How the results depend on the processing

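Of 150 comparisons of a chaperone gene with an alternative, 147 kept the direction and the side of the threshold. The exceptions were Hspe1 without DMSO 1 and with no filter, and Dnaja1 without DMSO 2. No chaperone was called in the main fit and either FPKM fit called 0 genes, so none could change its side of the threshold there. The same holds for leaving out either Aβ40 library. The number of genes higher, 17, became 104 with DESeq2, 185 with no filter, 27 with the replicate block and 0 with either FPKM fit, and ran from 0 (without either Aβ40 library) to 705 (without DMSO 1; 582 without DMSO 2). The number lower, 0, became 1 with library-size scaling, 34 with DESeq2 and 70 with no filter, and ran from 0 (without either Aβ40 library) to 479 (without DMSO 2; 388 without DMSO 1), where the remaining library of a group is assumed to vary like the others. No filter and single libraries change the genes or samples tested; for the rest the cause was not tested. Same-numbered libraries deviated in opposite ways (correlation -0.187), so a crossed pairing was added after the data were seen. The crossed replicate block gave 445 higher and 276 lower calls, 1 of them a chaperone. Since this pairing was picked on these values to join libraries that deviate alike, the block takes up scatter. Its larger number of calls is therefore not a result about the genes. The block changed no other call among the chaperones. Without each library the Hspa1a and Hspa1b sum ran from -1.18 to -0.56 and list medians from 0.25 to 0.44 for TRiC, -0.04 to 0.92 for prefoldin, 0.05 to 0.25 for other HSP70 proteins, -0.06 to 0.04 for other J-domain proteins, -0.18 to 0.08 for HSP70 cofactors, -0.06 to 0.10 for HSP90 co-chaperones, 0.13 to 0.30 for the ER, 0.17 to 0.37 for mitochondria, -0.13 to 0.11 for heat shock factors and 0.20 to 0.77 for small heat shock proteins (0.62 with limma-voom). Some genes changed sign, among them Hspb6 and Pfdn5, which were at 0.51 and 0.41 in the main fit. Dnaja1 ran from -0.13 to 0.43, Hsbp1 from -0.02 to 0.31, Hsf1 from -0.20 to 0.50 and Hspb11 from -0.47 to 1.58. Hspb6 ran from -0.04 to 1.40, Hspa14 from -0.11 to 0.004, Dnaja2 from -0.03 to 0.17 and Bag1 from -0.34 to 0.28. Sugt1 ran from -0.06 to 0.60, Ptges3 from -0.18 to 0.05 and Pfdn5 from -0.07 to 1.11. Pdia3 ran from -0.15 to 0.33, Nkg7 from -0.0017 to 0.32 and Hbb-bs from -0.58 to 0.82. Hbb-bs was also at 0.12 with limma-voom and with the replicate block and at 0.11 with either FPKM fit, against -0.04. Depth limits Hspa1a, Hspa1b and Hsph1 most, with 38 to 173 counts per library.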

Other observations

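Of 12 processed pseudogenes named after these chaperones, Hspd1-ps3 (ENSMUSG00000058809) was the only one past the filter on low counts. It had 72 and 57 counts with DMSO and 116 and 138 with Aβ40, or 1.01 on the log2 scale (SE 0.32, adjusted p = 0.325 by edgeR quasi-likelihood), against 0.31 (SE 0.18) for Hspd1 itself. Reads of Hspd1 and of this copy may be split by the counting. It was named after its values were seen.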
